A study of Mus musculus with 12 samples.

Results

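The 10 integrin genes described here were grouped by name as integrins of the keratinocyte. They were taken by symbol from the deposited expression table, peak lists and methylation table: Itga2, Itga3, Itga5, Itga6, Itgav, Itgb1, Itgb4, Itgb5, Itgb6 and Itgb8. All 10 occur in at least 1 of these tables, out of 10751 gene names in all. Of the 10, 9 are among the 7978 genes of the expression table, 8 carry 24 of the 18423 m6A peaks listed for day 4 and 26 of the 19920 listed for day 0, and 1 holds 1 of the 2561 sites called differentially methylated. The symbol and Ensembl identifier of all 10 matched the table of gene names.

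The cells were primary keratinocytes from newborn mouse epidermis, grown to passage 3 on 3T3 fibroblast feeders that mitomycin C had stopped from dividing, in low-calcium medium with serum. Differentiated cells were taken at day 4 of a calcium shift, which makes cultured keratinocytes stop dividing and stratify, and undifferentiated cells at day 0. No genotype or strain is named in the labels, and both days shared the feeder culture. N6-methyladenosine (m6A) is the internal methylation of mRNA, and RNA fragments that carry it were pulled down with an antibody. There were 3 input and 3 immunoprecipitated libraries at day 4, and the same numbers at day 0. The tables give no value per library, so the spread is known only through the authors' standard errors. Nothing in the labels ties the replicates to separate animals or cultures, so the p-values may reflect technical spread alone.

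Integrins are receptors made of an alpha and a beta chain that join the extracellular matrix outside the cell to actin or to keratin filaments inside. In the epidermis they lie mainly on basal cells. There α6β4 anchors the keratin network to laminin in hemidesmosomes, α3β1 also binds laminin, and α2β1 binds collagen. The αv receptors bind matrix proteins with an RGD sequence, such as fibronectin, vitronectin and tenascin, and αvβ6 and αvβ8 release active TGF-beta from its latent form.

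The direction of each comparison is not in the headers and was read from the peak lists. Of 497 genes of the expression table with a peak at day 4 only, 466 had a positive value, against 32 of 797 genes with a peak at day 0 only, so values are taken as day 4 over day 0. As background markers, the basal keratins Krt15 (log2 fold change 4.57), Krt14 (1.06) and Krt5 (0.96) and the suprabasal genes Ivl, involucrin (3.67), and Krt10 (1.47) were raised in the authors' deposited table, whereas the basal regulator Trp63 was lower (-0.92). In all, 3 of 4 basal markers were higher and 1 lower, and 3 of 4 suprabasal markers were higher, with Lor not listed. The third of these suprabasal markers was Krt1, at a mean normalized count of only 2.65. Of 15 markers of fibroblasts, 4 were higher, 1 was lower and 10 were not listed. Postn (3.66) and Acta2 (2.97) were those with a mean normalized count above 100 in the authors' deposited table. Col5a1 had the largest change (4.58) at a mean of 65.8 in the authors' deposited table. The lower marker was Col6a1 (-2.07) at a mean of 86.4 in the authors' deposited table. The collagens Col1a1, Col1a2 and Col3a1 were not listed and had no peak on either day. Of all 15 fibroblast markers, 1 had a peak at day 4 and 0 had one at day 0. Itgav, Itgb1, Itgb5 and Itga5 are also made by fibroblasts, so these values stand beside every integrin result, and their part in it was not tested. Of 6 melanocyte markers 2 were higher, among them Mitf (1.65), and of 6 immune and endothelial markers 1 was higher and 1, Cd68 (-1.92), lower in the authors' deposited table. As background for these marker counts, 27.1% of all genes tested were called higher and 26.4% lower.

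The laminin-binding integrins were lower at day 4, and the αv integrins were higher. In the authors' deposited table Itga3, Itga6, Itgb4, Itgb1 and Itga2 fell, while Itgav, Itgb5, Itgb6 and Itgb8 rose, all at an adjusted p under 0.05 by DESeq2. Itga5, the alpha chain of the fibronectin receptor α5β1, was not listed, which means that it was either not called or not tested. So 4 of 10 were higher and 5 of 10 lower. The adjustment implies 14924 genes tested, of which 27.1% were called higher and 26.4% lower, or 53.5% in either direction. The share of integrins called was above that background, but the 10 genes were chosen with these results known. These shares also do not compare genes of like abundance. Of the listed integrins, 7 had mean normalized counts of 2338 to 15855, and at most 12.1% of the table had a larger mean. The median log2 fold change was -0.32 over the 9 listed integrins and 0.26 over all genes of the table. In bulk RNA, fewer cells of a type and less RNA per cell cannot be told apart.

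**Figure D1:**
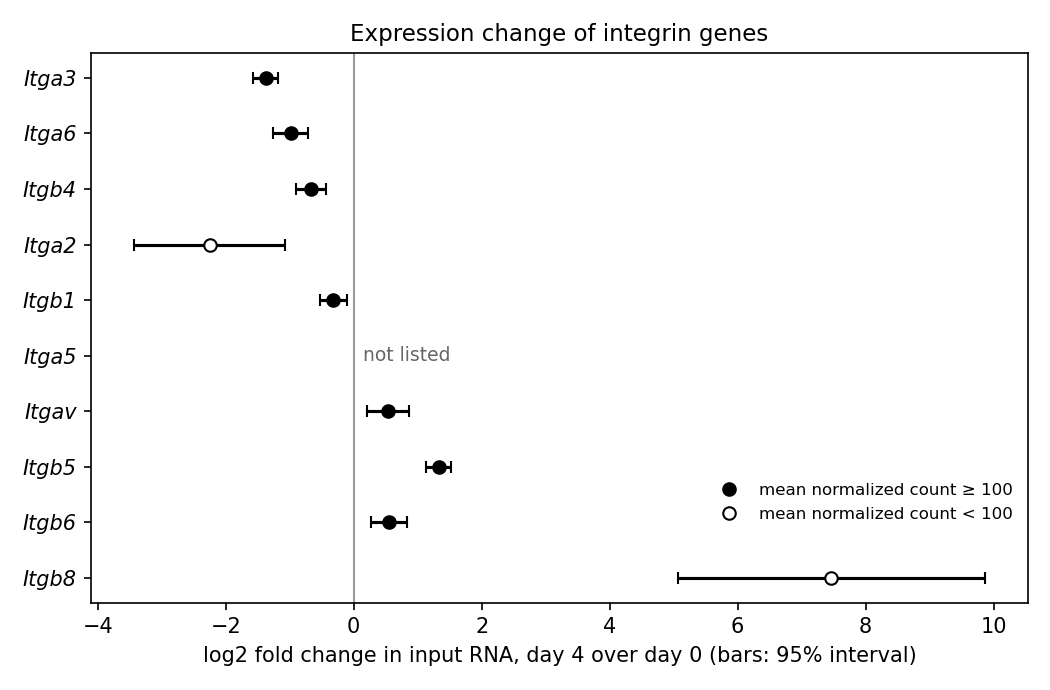
Log2 fold change in input RNA, day 4 over day 0, for each integrin gene in the authors' deposited table, with 95% intervals from the standard error. Subunits of laminin and collagen receptors lie left of 0 and the αv group lies right of it, and open circles mark Itga2 and Itgb8, whose mean normalized counts are under 100.

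Itga3, the alpha chain of the laminin receptor α3β1, had the largest fall among integrins whose mean normalized count reached 100. It was 2.60-fold lower at day 4 in the authors' deposited table (log2 fold change -1.38, SE 0.10, 95% interval -1.58 to -1.18, DESeq2 adjusted p = 3.0e-40). If the table's mean of 15855 normalized counts was taken over equal numbers of libraries per day, it implies 8812 at day 4, against 22897 at day 0. Only 27.0% of genes in the table had a larger absolute change.

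Itga6 and Itgb4 form the hemidesmosome receptor, and both chains fell. Itga6 was 1.98-fold lower in the authors' deposited table (log2 fold change -0.99, SE 0.14, DESeq2 adjusted p = 7.7e-12), with implied means of 2418 at day 4 and 4793 at day 0. Itgb4 was 1.59-fold lower in the authors' deposited table (log2 fold change -0.67, SE 0.12, DESeq2 adjusted p = 8.7e-08), with implied means of 11786 at day 4 and 18704 at day 0. The 95% interval of the log2 fold change ran from -1.26 to -0.71 for Itga6 and from -0.90 to -0.43 for Itgb4. The intervals of these partner chains overlap, and the difference between them was not tested.

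Itgb1, the beta chain that α2, α3 and α5 share, had the smallest change of the 9. Its change stood at -0.32 on the log2 scale in the authors' deposited table (SE 0.11, 95% interval -0.53 to -0.11, DESeq2 adjusted p = 0.00689), with implied means of 6170 at day 4 and 7703 at day 0. Most genes of the table (94.0%) had a larger absolute change. Its interval does not meet that of its partner Itga3.

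Itga2, the alpha chain of the collagen receptor (chr13:114833081-114932100, minus strand, mm10), was listed at a mean normalized count of only 11.8. It fell by 2.25 on the log2 scale in the authors' deposited table (SE 0.60, DESeq2 adjusted p = 5.1e-04), which implies 4.09 normalized counts at day 4, against 19.5 at day 0. The interval from -3.43 to -1.07 is wide, and the size of this fall is poorly fixed.

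Among the αv integrins, Itgb5 had the largest rise once the mean normalized count reached 100. In the authors' deposited table this beta chain of the vitronectin receptor αvβ5 was 2.51-fold higher at day 4 (log2 fold change 1.33, SE 0.10, 95% interval 1.13 to 1.52, DESeq2 adjusted p = 1.1e-37). The implied means were 3343 at day 4 and 1333 at day 0.

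Itgav, the alpha chain of all αv receptors, and Itgb6, a beta chain of epithelial cells that is known to rise in wounds, moved by similar and smaller amounts. In the authors' deposited table Itgav was 1.45-fold higher (log2 fold change 0.53, SE 0.17, DESeq2 adjusted p = 0.00311), with implied means of 4001 at day 4 and 2763 at day 0. Itgb6 was listed as 1.46-fold higher in the authors' deposited table (log2 fold change 0.55, SE 0.14, DESeq2 adjusted p = 3.5e-04), with implied means of 3697 at day 4 and 2527 at day 0. Their 95% intervals, 0.21 to 0.86 for Itgav and 0.27 to 0.83 for Itgb6, lie below that of Itgb5.

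Itgb8, the beta chain of the other TGF-beta-activating receptor (chr12:119162803-119238276, minus strand), had the eighth largest rise in the whole table at a mean normalized count of 22.7. It rose by 7.47 on the log2 scale in the authors' deposited table (SE 1.23, 95% interval 5.06 to 9.87, DESeq2 adjusted p = 5.7e-09), which implies 45.2 normalized counts at day 4 and 0.256 at day 0. That day 0 level corresponds to 0.767 counts summed over 3 libraries. Because the day 0 level is so low, the fitted fold is not a measured size. Itgb8 was thus close to undetected at day 0 and low at day 4.

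**Figure D2:**
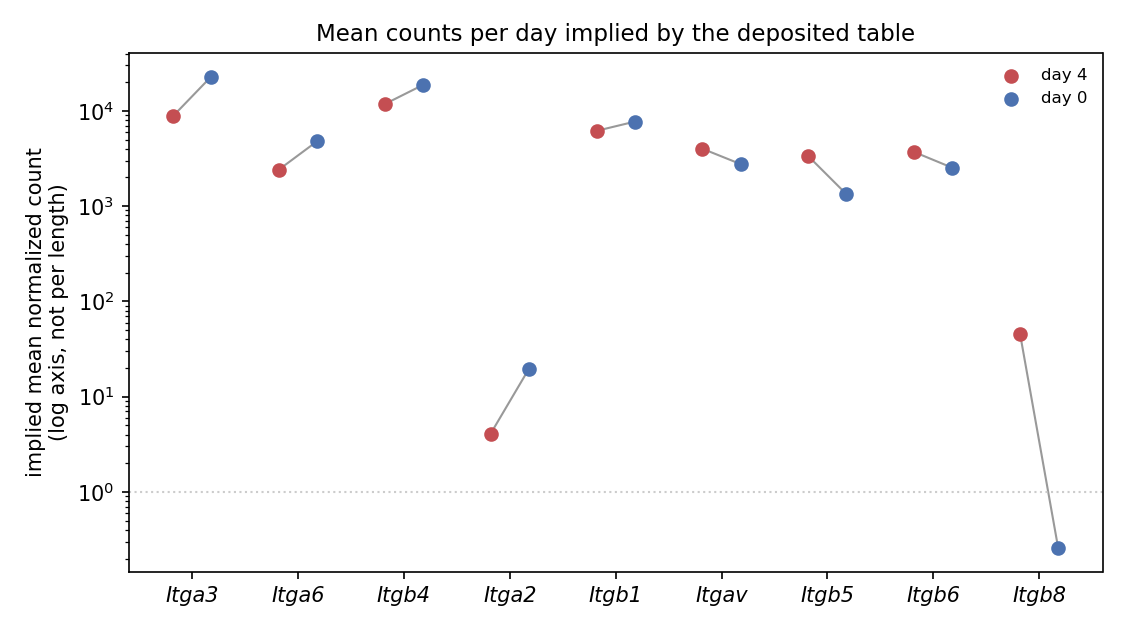
Mean normalized count per day (log axis) implied by the deposited mean and fold change for the 9 listed integrins, with day 4 left of day 0. Counts are not divided by transcript length, so heights compare days within a gene and not genes. Itgb8 stands apart, with 45.2 at day 4 against 0.256 at day 0.

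Of the listed integrins, 4 changed at least 2-fold, with Itgb5 and Itgb8 higher and Itga3 and Itga2 lower. Among all genes tested, 21.2% were called at that size, 11.3% with a rise and 9.9% with a fall. At a minimum mean normalized count of 100, 7 integrins remain, 3 higher and 4 lower.

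Outside these 10 genes, the integrin family was little represented. Of 16 other subunits, mostly known from leukocytes, platelets, muscle or mesenchyme, 14 were not listed and none had a peak on either day. In the authors' deposited table the 2 listed, named after their values were seen, were Itgb7 (log2 fold change -3.37, SE 0.31) and Itgam (6.79, SE 1.27). Their mean normalized counts were 78.7 and 11.7.

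Genes for the matrix that integrins bind were mostly higher. Of 22 ligand genes, 12 were higher, 3 lower and 7 not listed, with a median log2 fold change of 1.38 over those listed. The shares over all genes tested were 27.1% higher and 26.4% lower. The largest changes were in ligands of αv receptors. Values in the authors' deposited table, on the log2 scale, were 4.76 (SE 0.26) for Tgfb3, a latent TGF-beta, 4.69 (SE 0.20) for osteopontin, Spp1, and 4.33 (SE 0.14) for tenascin C, Tnc. Several of these ligand genes, such as Tnc, Fn1 and Col4a1, are also expressed by fibroblasts.

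The hemidesmosome partners of α6β4 went with the receptor in 3 of 4 cases. Plectin, Plec, which links β4 to keratin filaments, had a log2 fold change of -1.27 (SE 0.27) in the authors' deposited table. The plakin Dst (-0.56, SE 0.15) and the collagen Col17a1 (-0.55, SE 0.10) were also lower in the authors' deposited table. The tetraspanin Cd151, which binds α3β1 and α6β4, was instead higher (0.72, SE 0.10) in the authors' deposited table. Adaptor and signalling proteins that bind integrin tails or act below them were split, with 9 of 25 higher, 7 lower and 9 not listed, and a median of 0.25. Over all genes tested, 27.1% were called higher and 26.4% lower. Talin 2, Tln2 (-2.21, SE 0.20), and the focal adhesion kinase Ptk2 (-1.16, SE 0.09) had the largest falls above that minimum mean of 100, and the tensin Tns1 (0.88, SE 0.15) the largest rise, in the authors' deposited table. Talin 1, Tln1, which activates integrins in most cells, and the epidermal kindlin Fermt1 were not listed.

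**Figure D3:**
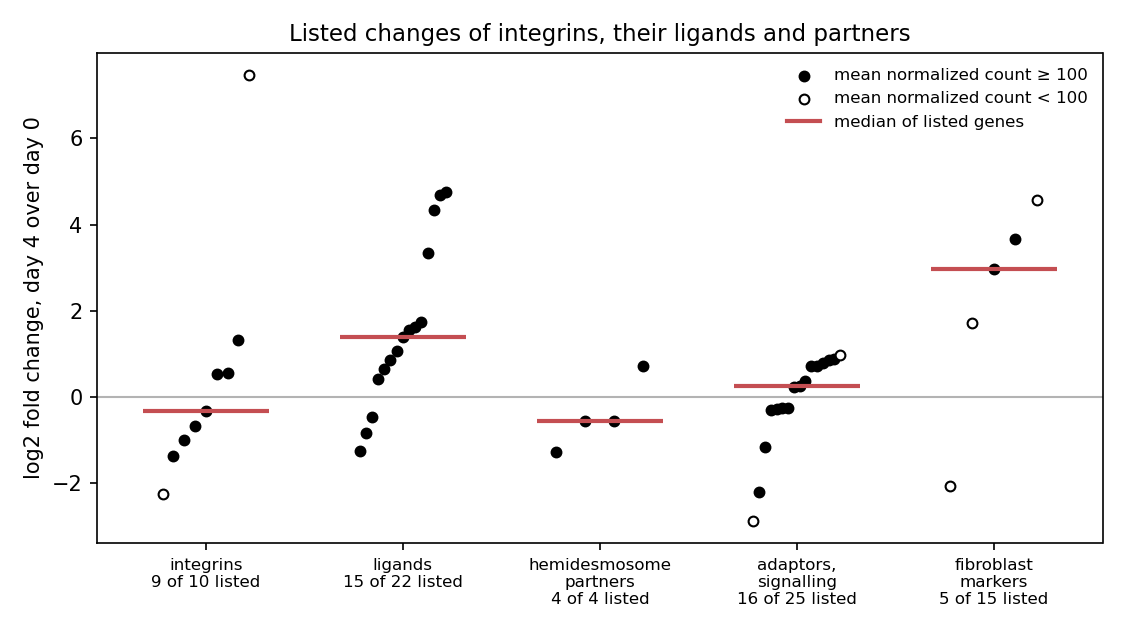
Log2 fold change, day 4 over day 0, of every listed gene in 5 gene lists (points, sorted within a list), with the median of the listed genes as a red line. The median is 1.38 for ligands, against -0.32 for integrins and -0.55 for hemidesmosome partners, and the fibroblast markers have 5 of 15 genes listed.

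In the peak lists, 8 of the 10 integrins had m6A peaks on both days, and Itga2 and Itgb8, the pair with the lowest counts, had none on either day. All 7 integrins listed at that minimum mean of 100 had a peak on both days. Among all 6404 genes of the table at that level, 68.5% had a peak at day 4 and 73.2% at day 0. The 7 integrins had means of 2338 to 15855, and at most 12.1% of the table had a larger mean. These shares therefore do not compare genes of like abundance. The number of peaks at day 4 and day 0 was 2 and 3 in Itga3, 1 and 1 in Itga5, 2 and 2 in Itga6, and 3 and 2 in Itgav. For the beta chains it was 4 and 4 in Itgb1, 3 and 6 in Itgb4, 3 and 3 in Itgb5, and 6 and 5 in Itgb6. The median over all genes with a peak was 2 on each day.

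In 2 integrins a peak lay at an annotated start of the transcript, where the sequence can be shown, beginning 0 bases from it in Itgb5 and 6 bases from it in Itga3. Sequences are from RefSeq (GRCm38.p6, the assembly of mm10), read 5′ to 3′ on the strand of the gene. The Itgb5 line covers chr16:33829415-33829694 on the plus strand, with the 250 bases before the start in lower case. The Itga3 line covers chr11:95076679-95076708 on the minus strand. Capitals mark bases inside a peak that is listed on both days, and the peaks extend beyond them.
Itgb5: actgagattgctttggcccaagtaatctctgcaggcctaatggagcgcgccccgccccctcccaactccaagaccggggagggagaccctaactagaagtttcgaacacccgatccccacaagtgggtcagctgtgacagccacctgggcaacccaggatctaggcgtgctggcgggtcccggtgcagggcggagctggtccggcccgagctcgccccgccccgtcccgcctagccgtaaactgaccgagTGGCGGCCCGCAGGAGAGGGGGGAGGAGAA
Itga3: TCCTGCCCTCCTGGTGATCGAGGGCTTGCC

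The peak at the start of Itgb5 was 100 bp wide at day 4 with a score of 77.4, above 85.6% of the peaks in that list. At day 0 it was 50 bp wide with a score of 38.3, above 63.8% of that list. The Itga3 peak had the same borders on both days (chr11:95076411-95076708, minus strand) and a score above 84.1% of the day 4 list and above 83.5% of the day 0 list. Neither set of capitals holds GGAC, the core of the common m6A consensus. On the transcript strand, GGAC occurs in the 50 bases after the start in 18.9% of all 32851 RefSeq windows and in 0 of the 10 windows of these integrins. Windows were given for 8 of the 10 genes, some with more than 1 start, and Itga6 and Itgb4 had none. The 250 bases before the start of Itgb5 hold GGGCGG or its complement CCGCCC 3 times, counted on both strands with overlaps, and 32.7% of all windows hold either at least once. The absence of GGAC says only that these letters are not in the window.

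The strongest integrin peaks lay towards the 3′ end, in Itgb5, Itga3, Itga5 and Itga6. The enrichment score is the authors' own value per peak, of unstated scale, and is used here only within a list. In Itgb5 the 3′ peak scored 300.5 within the day 4 list (chr16:33947818-33949089, plus strand), above 98.4% of the peaks in that list. Within the day 0 list it scored 389.7 (chr16:33947818-33949040), above 97.8% of the peaks. The 3′ peak of Itga3 was listed at identical coordinates on both days (chr11:95044525-95045716, minus strand), 50 bp from the annotated end. It scored above 97.5% of the day 4 list and above 97.0% of the day 0 list. A further Itga3 peak (chr11:95057297-95057346), listed at day 0 only, was weak. Its score of 2.33 was above 1.31% of that list, at an unadjusted p of 0.00175.

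Itga5 had a single peak, also at identical coordinates on both days (chr15:103344435-103345228, minus strand), 149 bp from the annotated end. It scored above 94.8% of peaks at day 4 and above 91.8% at day 0. The methylated region of Itga6 was listed at day 4 in 2 parts (chr2:71855941-71856686 and chr2:71856737-71857383, plus strand), against 1 peak at day 0 (chr2:71855891-71857383). The outer borders differ by 50 bp at one end and by none at the other. A further Itga6 peak nearer the end, with an unadjusted p of 2.2e-04, was listed at day 0 only.

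Itgav carried a pair of neighbouring peaks that were listed on both days. They lay 3478 and 2931 bp from the annotated end at day 4, and 3527 and 2931 bp from it at day 0. Their scores were above 82.0% and 76.8% of the day 4 list, and above 91.1% and 89.7% of the day 0 list. At day 4 a weaker peak followed them (chr2:83804384-83804433, plus strand). Lists of different length and unknown scaling give no measure of change, so these positions describe each list by itself.

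**Figure D4:**
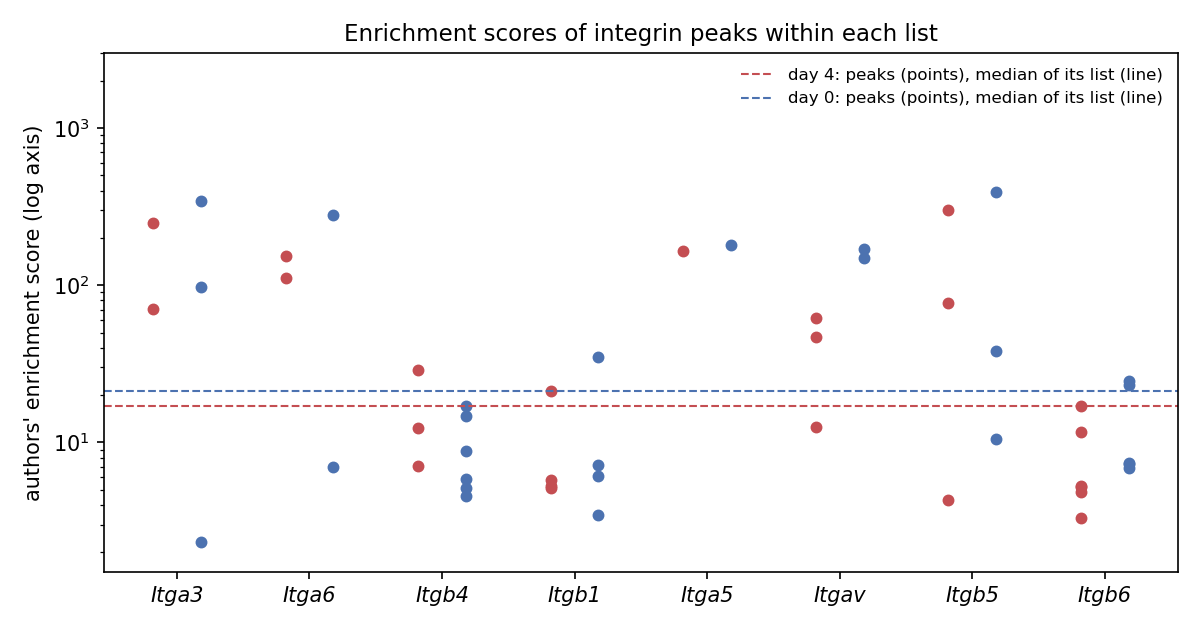
The authors' enrichment score (log axis) of every peak in the 8 integrins with peaks, with day 4 left of day 0 and dashed lines at the median of each list, 17.1 at day 4 and 21.4 at day 0. Itga3, Itga5, Itga6, Itgav and Itgb5 each have a peak far above the medians, and the scales of the lists are not known to match.

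Itgb1, Itgb4 and Itgb6 had several peaks each, and their top peaks stood above only 44.0% to 65.3% of the list of the day. Itgb1 had a single peak that stood out, at 21.2 against 5.72 for the next at day 4 and 34.8 against 7.16 at day 0. The top peak of Itgb1 scored above 56.5% of the day 4 list and above 61.6% of the day 0 list. It lay 999 bp from the annotated end on both days (chr8:128732182-128732580 at day 4, chr8:128732082-128732580 at day 0, plus strand). At day 0 Itgb1 also had listed peaks of 2159 and 5886 bp along the genome, whose ends may span introns, and the longer one had no overlap with a day 4 peak.

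Itgb4 was the integrin whose count of peaks differed most between days. Its 3 day 4 peaks all overlapped day 0 peaks, whereas 3 of its 6 day 0 peaks overlapped none at day 4. The day 0 peaks without a partner were weak, with scores above 8.41% to 13.7% of that list. They included a pair in the 5′ part of the gene (chr11:115980977-115981026 and chr11:115982863-115982912, plus strand). The order of the peaks at the 3′ end differed within the lists. At day 4 the last peak (chr11:116008263-116008361) scored 28.9, against 12.4 for its upstream neighbour (chr11:116007964-116008162). At day 0 the last peak (chr11:116008213-116008361) scored 14.7, against 17.0 for the neighbour. The listed RNA of Itgb4 fell, so a missing day 4 peak need not mean a loss of methylation.

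Itgb6 had all 5 of its day 0 peaks overlapped by day 4 peaks and 2 further peaks at day 4. These 2 lay in the middle of the gene (chr2:60668342-60668391 and chr2:60673420-60673469, minus strand). The second of them began 224 bases downstream of an alternative RefSeq start at 60673693. Their scores were above 13.1% and 5.01% of the day 4 list, and the unadjusted p of the peak near that start was 3.0e-04. The listed RNA of Itgb6 rose, so a peak listed at day 4 only need not mean a gain of methylation.

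Over all 8 genes, 20 of 24 integrin peaks at day 4 (83.3%) overlapped a day 0 peak by at least 1 bp on the same strand, against 78.9% of all peaks at day 4. At day 0, 19 of 26 (73.1%) overlapped a day 4 peak, against 70.2% of all peaks at day 0. The shares of integrin peaks lie near those of all peaks. Within 1000 bp of the annotated 3′ end lay 8 of 24 integrin peaks at day 4 and 8 of 26 at day 0. The shares of all peaks in protein-coding genes were 31.2% and 29.7%. The strongest peak of the gene lay within 1000 bp of that end in 5 of 8 integrins on each day, against 39.0% of all genes at day 4 and 39.6% at day 0. Distances run along the genome and include introns.

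**Figure D5:**
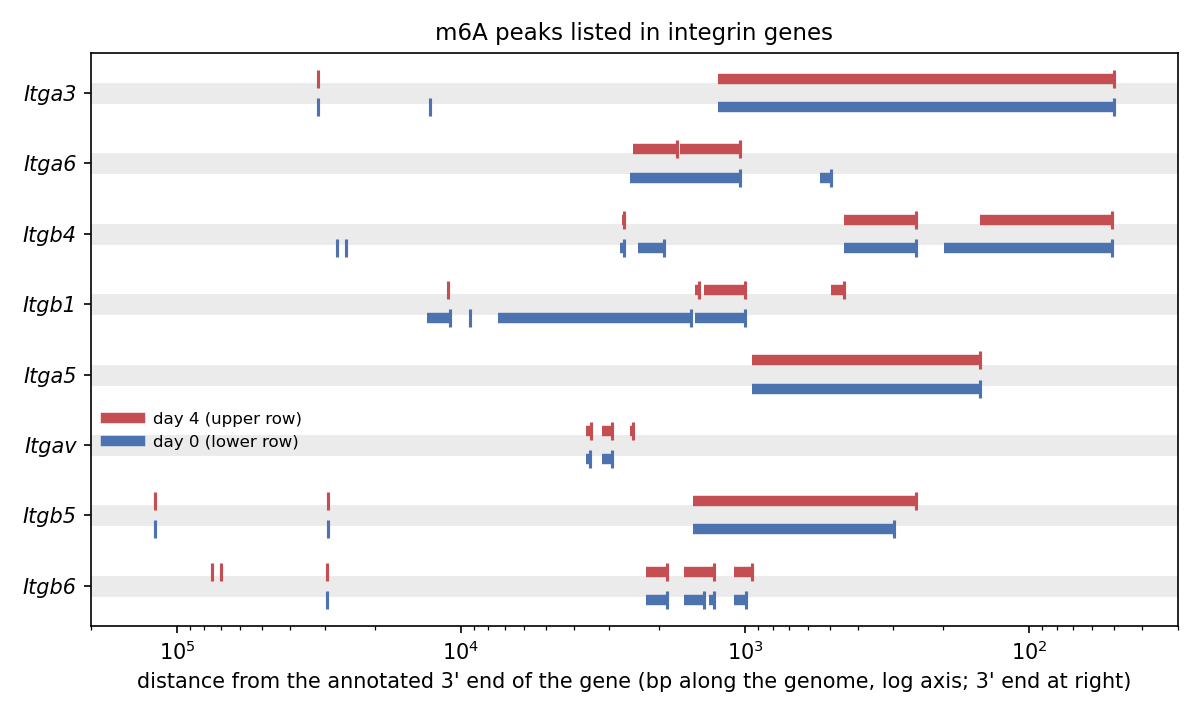
Position of each m6A peak in the 8 integrins with peaks, as distance from the annotated 3′ end along the genome (log axis, 3′ end at the right), with day 4 in the upper and day 0 in the lower row of each gene. Vertical ticks mark the end of a peak nearest the 3′ end of the gene. Most peaks recur in both rows, and Itgb4 has 3 peaks at day 4 against 6 at day 0.

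The methylation comparison called a single integrin site, a gain in Itgb5. The site (chr16:33947718-33949089, plus strand, 1372 bp) covers the strong 3′ peak of that gene on both days. Its log fold change was 0.43, with a false discovery rate of 0.0157, in the authors' deposited table, whose log base is not stated. This gain was small for a called site: only 10 of 1611 finite gains were smaller, and the median finite gain was 1.82 in the authors' deposited table. The RNA of Itgb5 rose as well. Whether and how the authors' test corrected for RNA level is not known here.

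No site was listed in the other 7 integrins with peaks. Of integrin peaks, 1 of 24 at day 4 and 1 of 26 at day 0 overlapped a called site, against 12.8% of all peaks at day 4 and 10.3% at day 0. The difference from these shares was not tested. Over all sites tested, which the adjustment puts at 36796, 6.96% were called, 4.79% as gains and 2.17% as losses.

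Called sites were also listed in partner genes. All 11 sites of the hemidesmosome partners were gains and all lay in Plec, whose RNA fell, with log fold changes of 0.68 to 3.68 in the authors' deposited table. These 4 partners held many peaks, 51 at day 4 and 56 at day 0. The ligand genes held 12 gains and 2 losses in 7 of 22 genes, including 6 gains in Col7a1, the anchoring fibril collagen, and 3 in Col4a2, a chain of basement membrane collagen. The losses were at Fn1 (-2.98) and Spp1 (-1.88) in the authors' deposited table, both genes whose RNA rose. Of the ligand genes with gains, RNA also rose in Col4a1, Col4a2, Col7a1 and Tnc, and it fell in Hspg2. The adaptor list held 10 gains and no loss in 8 of 25 genes. Of these genes, RNA rose in Actn4, Bcar1, Sharpin and Tns3, and the others were not listed for expression. Of all 2561 called sites, 1763 were gains. The share of all genes that hold a called site was not computed. The counts of genes with sites in these lists therefore stand without a background and do not set the lists apart.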

How the data were processed

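Sonicated polyA RNA was sequenced as input or after anti-m6A pull-down, with a strand-specific kit, per the labels' protocols. HISAT2 2.1.0, DESeq2 1.18.1 and the mm10 build are named in the submitters' processing notes. The peak caller, how replicates were joined and the methylation test are not given in the sources used. Each of the 12 libraries was grouped by its title. The authors' deposited peak lists give an enrichment score and an unadjusted p-value per peak. Their deposited expression table gives a mean normalized count (a signal over libraries), a log2 fold change with its SE, a test statistic used as a score, and p-values. Their methylation table gives a log fold change of unstated base, treated as a score, and false discovery rates. Both comparison tables hold only lines under 0.05, and depth per library is unknown.

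Computed here were overlaps on the same strand (at least 1 bp), distances to RefSeq gene ends (GRCm38.p6), 95% intervals (1.96 SE), implied means per day, and the number tested, from adjusted p times rank over p. Called sites overlapping only a day 4 peak were positive in 414 of 419 cases, and those overlapping only a day 0 peak in 29 of 119, so methylation values were read as day 4 over day 0. The members, lists and tests were chosen with earlier results of these data known. All members are named, and from each other list the 3 largest listed changes at a mean of at least 100, plus every hemidesmosome partner. Further names (Trp63, Krt1, Col5a1, Col6a1, the unlisted collagens, Tln1, Fermt1 and genes with called sites) were chosen after their values were seen. A gene of the ligand list is counted but its value is not reported here. The number tested and the overlap rules were tested on simulated data. Alternatives were stricter p-values, a 2-fold change, a mean of at least 100, stricter peaks and other overlap rules. Software was Python 3.11.15, numpy 2.4.6, pandas 2.3.3 and matplotlib 3.10.9.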

Additional observations from a re-analysis of the deposited data

How the results depend on the processing

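Among changes of 2-fold or more, the number of integrins higher at day 4 was 2 in place of 4, and the number lower was 2 in place of 5. At a false discovery rate under 0.01, 0 integrin sites remained, in place of 1, since the Itgb5 site had a rate of 0.0157. Counts of higher and lower integrins under an adjusted p of 0.01 or a mean normalized count of at least 100, counts of peaks at an unadjusted p under 0.001 or 1e-5, and counts of shared peaks under the stricter overlap rules stayed within 1.5 times of those reported. Requiring overlap of at least 50% of each peak left 16 shared peaks on each day. No paired analysis was possible because the deposited tables carry no column per library, and for the same reason leaving out a replicate could not be run. Unknown depth limits what the unlisted genes and unlisted sites can show.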
